A study of Mus musculus with 2 samples.

Results

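Genes of the B cell receptor and of plasma cells were examined in brain mononuclear cells of CD47 KO and WT mice. The 9 genes were Cd79a, Cd79b, Ighm, Ms4a1, Cd22, Bank1, Fcrla, Pax5 and Jchain, out of 18193 genes named on the array. A probe set, the group of short probes that together give 1 signal, was taken when the platform annotation gave it exactly 1 symbol and that symbol, or an older name, was one of the 9. This gave 24 of the 34945 probe sets that carry exactly 1 symbol, 11 of them for Ighm. Signals were lower in CD47 KO than in WT cells on 21 of the 24 probe sets. The differences past 2-fold were on probe sets of Ighm, Ms4a1 and Cd22 whose CD47 KO signal lay under the median of the array. The 8 probe sets that reached the median on both arrays, those of Cd79a, Cd79b, Jchain, Bank1, Fcrla and Ighm, had Log2 ratios from -0.83 to -0.09.

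The study asked how loss of CD47, the membrane ligand of the inhibitory receptor SIRPα, changes microglia and the brain. The CD47 KO sample was RNA pooled from 6 mice carrying a null mutation of Cd47 in all tissues, aged 12 to 16 wks. The WT sample was RNA pooled from 7 mice aged 10 to 15 wks. Both pools came from mice labelled male and kept free of specific pathogens. Whole brains were rinsed and digested with enzymes, and the cells that collected between the lower layers of a Percoll gradient were taken with no sorting, so the pools hold every cell type of that density. From each pool, 20 ng of RNA was amplified and hybridised to 1 Affymetrix mouse array. There are no replicates, so no difference given here has an error or a test, and variation between mice cannot be seen. In such bulk RNA, fewer cells of a type and less RNA per cell cannot be told apart.

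The B cell receptor is a membrane immunoglobulin, whose heavy chain in naive cells is the mu chain, held by the signaling pair CD79A and CD79B. Binding of antigen leads kinases to phosphorylate the tails of this pair, and coreceptors and adaptors raise or dampen the signal. B cells that become plasma cells switch off much of this program, including PAX5, and secrete antibody, with the joining chain linking the units of IgM and IgA. In a healthy brain these cells are few and lie mostly in the meninges and in blood.

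The deposited value of a probe set is a linear MAS5 signal with no unit of its own, and probe sets differ in how strongly they bind, so the measure compared is the Log2 ratio between genotypes. A percentile, or the words bright and dim, says where a signal lies on its array and not how much of a transcript there is. That ratio is CD47 KO over WT. The median of all signals, 146 on the CD47 KO array and 161 on the WT array, served as the threshold, and a probe set at or above it on 1 array or both is called expressed. Of the 24 member probe sets, 8 reached the median on both arrays, 7 on the WT array only, 1 on the CD47 KO array only and 8 on neither. The 7 that passed through the WT array alone had to be relatively high there, so counts over the 16 expressed probe sets are not free of that choice.

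On the whole array, Cd47 itself had 5 probe sets, all lower in CD47 KO cells with Log2 ratios of -1.86 to -1.45. The brightest read 1688 in CD47 KO and 5816 in WT. Signals of Cd47 therefore remained in the knockout pool, which is no measure of protein. The pools also differed in RNA from tissue outside the brain, with growth hormone (Gh) at 618 in CD47 KO and 6782 in WT and the airway secretory gene Bpifa1 at 48.9 in CD47 KO and 2341 in WT. Xist, the transcript of the inactive X chromosome of females, was bright in both pools, at 6529.6 in CD47 KO and 7069.9 in WT on its brightest probe set, although the labels say male. On their brightest probe sets the Y-linked genes Eif2s3y and Kdm5d read 461 and 307 in CD47 KO and 189 and 162 in WT. A further probe set of each ran the other way, with 146 in CD47 KO and 165 in WT for Eif2s3y and 32.9 in CD47 KO and 115 in WT for Kdm5d. The remaining Kdm5d probe set read 104 in CD47 KO and 48.7 in WT. Each probe set of the Y-linked gene Uty was also higher in CD47 KO, the brightest with 101 in CD47 KO and 48.9 in WT. These last were all under the median on both arrays. The bearing of these differences on the genes below was not tested.

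**Figure D1:**
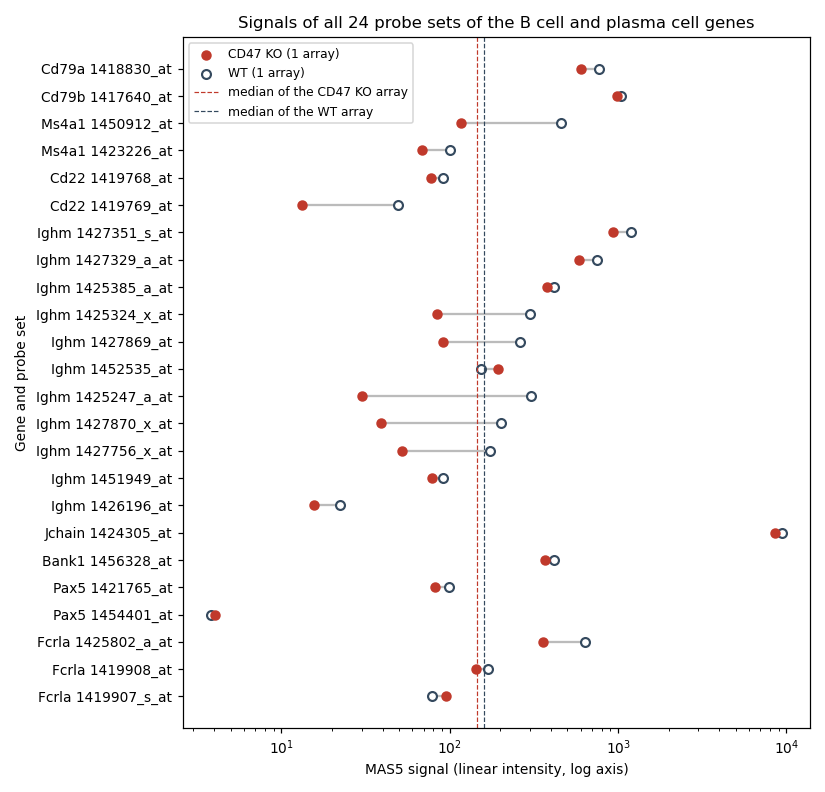
MAS5 signal (linear intensity, log axis) of each of the 24 member probe sets, with filled circles for the CD47 KO array, open circles for the WT array and dashed lines at the median of each array (146 for CD47 KO, 161 for WT). The filled circle lies left of the open one for 21 probe sets, and each gap of more than 2-fold belongs to a probe set whose CD47 KO signal is under the median.

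Of the receptor's signaling pair, Cd79a and Cd79b each had 1 probe set, bright on both arrays. Cd79a (1418830_at) encodes the alpha chain, also called Ig-alpha, and read 606 in CD47 KO and 769 in WT cells, a Log2 ratio of -0.34. These signals stood at the 77.4 percentile of the CD47 KO array and the 81.1 percentile of the WT array. Cd79b (1417640_at) encodes its partner, Ig-beta, and read 984 in CD47 KO and 1044 in WT, a Log2 ratio of -0.09. Both genes were thus well above the median in both pools, slightly lower in CD47 KO. Among expressed probe sets with a mean signal of 503 to 1156, the middle 95% of Log2 ratios ran from -0.94 to 0.86, and both values lie inside that range.

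Ighm, the constant region of the mu heavy chain, had 11 probe sets, and they did not give 1 answer. On the 3 that reached the median on both arrays, the difference was small. Probe set 1427351_s_at read 934 in CD47 KO and 1200.0 in WT, a Log2 ratio of -0.36. Probe set 1427329_a_at read 588 in CD47 KO and 747 in WT, a Log2 ratio of -0.35. Probe set 1425385_a_at read 376 in CD47 KO and 415 in WT, a Log2 ratio of -0.14. These 3 place Ighm close to Cd79a.

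On 5 further Ighm probe sets, only WT reached the median, and the CD47 KO signal was more than 2-fold below that of WT on each. The widest gap was that of 1425247_a_at, with 30.3 in CD47 KO and 306 in WT, a Log2 ratio of -3.34. With the 25th percentile of the arrays (39.2) added to both signals, to damp ratios of dim values, the Log2 ratio was -2.31. Probe set 1427870_x_at read 38.9 in CD47 KO and 201 in WT (Log2 ratio, -2.37). These lie beyond the middle 95% of expressed probe sets with a mean signal of 78.5 to 256, which ran from -2.07 to 1.75. The other members of the group fall inside that range. Probe set 1425324_x_at read 83.9 in CD47 KO and 301 in WT (Log2 ratio, -1.84), and 1427756_x_at read 52.2 in CD47 KO and 174 in WT (Log2 ratio, -1.73). Of the 5, only 1427869_at has a name without a suffix, and it read 91.8 in CD47 KO and 261 in WT (Log2 ratio, -1.51).

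The remaining Ighm probe sets included the one that ran the other way. Probe set 1452535_at read 195 in CD47 KO and 153 in WT, a Log2 ratio of 0.35, and reached the median on the CD47 KO array only. Probe sets 1451949_at, with 78.9 in CD47 KO and 91.8 in WT, and 1426196_at, with 15.7 in CD47 KO and 22.4 in WT, were under the median on both arrays. Over all 11, the Log2 ratios ran from -3.34 to 0.35 with a median of -0.51. A suffix _x marks probe sets with probes that may bind unrelated transcripts, _s those whose probes are common to transcripts of several genes, and _a those that match several transcripts of 1 gene. Immunoglobulin genes form a large family with shared stretches, and rearranged variable segments differ between cells, so which transcripts each Ighm probe set reads is uncertain, and probe positions were not used here. A further 4 probe sets that name Ighm together with other symbols were left out by the rule. They were under the median on both arrays, with Log2 ratios from -2.63 to -0.02.

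Of the surface proteins, Ms4a1 had the widest gap among the members other than Ighm. It encodes CD20, a marker of B cells that plasma cells lack. Probe set 1450912_at read 117 in CD47 KO and 461 in WT, a Log2 ratio of -1.98, so the WT signal was 3.94-fold that of CD47 KO. WT stood at the 72.0 percentile of its array, whereas CD47 KO, at the 45.7 percentile, was under the median. The value lies beyond the middle 95% of expressed probe sets with a mean signal of 256 to 503, which ran from -1.29 to 1.18, and with the 25th percentile added it was -1.68. The other probe set, 1423226_at, did not reach the median on either array and read 68.5 in CD47 KO and 101 in WT, a Log2 ratio of -0.56. Both probe sets of Ms4a1 thus had the lower signal in CD47 KO, by amounts that differ between them.

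Cd22 encodes an inhibitory coreceptor that binds sialic acid and dampens receptor signaling. Neither of its probe sets reached the median of either array. Probe set 1419768_at read 77.2 in CD47 KO and 91.5 in WT, a Log2 ratio of -0.24. Probe set 1419769_at read 13.3 in CD47 KO and 49.1 in WT, a Log2 ratio of -1.89 that shrank to -0.75 with the 25th percentile added. Cd22 was thus dim on both arrays, in the range where ratios spread most.

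Bank1 and Fcrla act inside the B cell. Bank1, an adaptor that ties receptor signaling to calcium release, had 1 probe set (1456328_at) with 369 in CD47 KO and 414 in WT, a Log2 ratio of -0.16. Fcrla, an intracellular protein of the Fc receptor family found in B cells, had 3 probe sets that disagree in size. The brightest, 1425802_a_at, read 357 in CD47 KO and 634 in WT, a Log2 ratio of -0.83 that lies inside the range of like-bright probe sets. Probe set 1419908_at read 143 in CD47 KO and 169 in WT, a Log2 ratio of -0.24, and reached the median on the WT array only. Probe set 1419907_s_at, under the median on both arrays, ran the other way with 95.1 in CD47 KO and 78.2 in WT, a Log2 ratio of 0.28.

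Pax5, the transcription factor that holds cells to the B lineage and is switched off in plasma cells, was under the median throughout. Probe set 1421765_at read 81.8 in CD47 KO and 98.8 in WT, a Log2 ratio of -0.27. Probe set 1454401_at read 4.02 in CD47 KO and 3.85 in WT, a Log2 ratio of 0.06. Both probe sets of Pax5 were thus dim in both pools, and they differ in sign.

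Jchain, the joining chain of secreted IgM and IgA and the plasma cell gene of the group, had 1 probe set, bright on both arrays. Probe set 1424305_at read 8518 in CD47 KO and 9361 in WT, a Log2 ratio of -0.14. It stood at the 98.6 percentile of the CD47 KO array and the 98.9 percentile of the WT array. Expressed probe sets with a mean signal of 1156 to 24453 had a middle 95% of -0.60 to 0.58, so the pools hardly differed in Jchain. The rank says how bright the probe set is, not how abundant the transcript is.

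**Figure D2:**
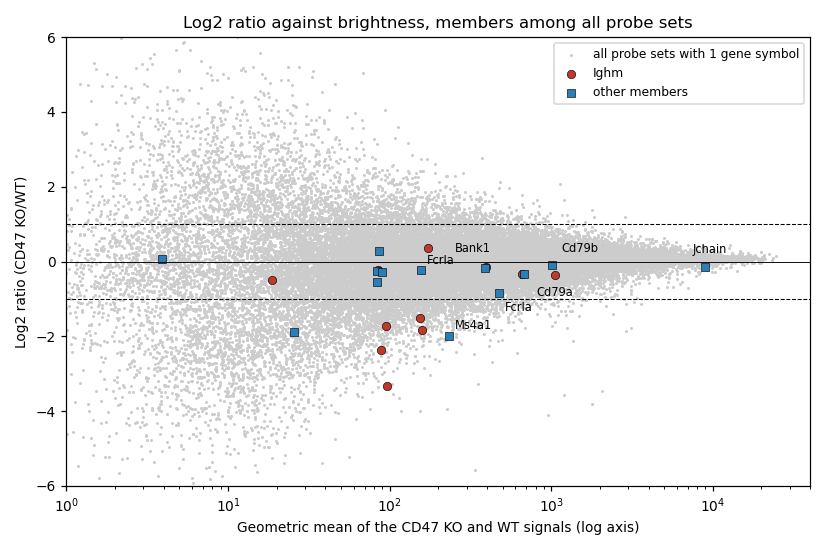
Log2 ratio (CD47 KO/WT) of probe sets with 1 gene symbol (grey) against the geometric mean of their CD47 KO and WT signals on a log axis, with Ighm as circles, the other members as squares and dashed lines at a 2-fold difference. Expressed members are labelled by gene (not Ighm), and probe sets past 6 on the Log2 axis or with a mean under 1 are not drawn. The spread of the grey points narrows with brightness, and the members past the lower dashed line lie left of Cd79a, Cd79b and Jchain.

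Counted over the whole group, 6 of the 16 expressed member probe sets (37.5%) were more than 2-fold lower in CD47 KO and none was more than 2-fold higher, whereas 5.49% of all 21167 expressed probe sets were lower and 3.95% higher by that much. The 6 were 5 probe sets of Ighm and 1 of Ms4a1, so they stand for 2 genes, and every one of them reached the median on the WT array only. Of the 7 member probe sets of that kind, 6 were past 2-fold lower, beside 51.6% of the 1446 such probe sets on the array. When the median was required on both arrays, none of the 8 member probe sets was past 2-fold in either direction, where the array had 2.29% lower and 1.38% higher. With no signal threshold, 7 of 24 (29.2%) were past 2-fold lower, the added one being 1419769_at of Cd22, and none past 2-fold higher, beside 12.8% lower and 8.58% higher over all 34945. Brightness mattered to these shares, since 13.7% of expressed probe sets with a mean signal of 78.5 to 256 were past 2-fold lower and 0.699% of those with 1156 to 24453, and 7 of the 16 expressed member probe sets are in the dim class.

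In sign alone, the members leaned further towards lower signals than the array did. Of the 24 probe sets, 21 (87.5%) were lower in CD47 KO with a median Log2 ratio of -0.35, beside 52.6% and -0.03 over all probe sets with 1 symbol. The 8 that reached the median on both arrays were all lower, with a median of -0.25, beside 49.4% and 0.01. These 8 belong to 6 genes, 3 of them to Ighm, and genes made by the same cells share their source, so they are not 8 separate observations. By its brightest probe set, each of the 7 expressed genes was lower in CD47 KO, from -1.98 for Ms4a1 to -0.09 for Cd79b, with a median of -0.34 beside 0.00 for all 11682 expressed genes. Ms4a1 passed through the WT array alone, so the threshold favoured a lower value for it. With the median required on both arrays, 6 genes remained, from -0.83 for Fcrla to -0.09, with a median of -0.25 beside 0.00 for all 10292 such genes. The spread of the Log2 ratio between probe sets of a gene had an SD of 0.459 for like-bright probe sets with a mean signal of 503 to 1156, which is wider than the differences of Cd79a, Cd79b and the 2 brightest Ighm probe sets.

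Upstream sequence was looked at for the members. Of the 9 genes, 6 are in the RefSeq promoter table used here (GRCm38.p6), and Cd79b, Ms4a1 and Ighm are not. Each window is the 250 bases before the transcript start that the table uses. For Cd79a, Jchain and Pax5 this start is the outer end of the RefSeq gene, whereas the windows of Bank1, Fcrla and Cd22 lie partly or wholly inside the RefSeq gene span, because other transcripts begin further upstream. Shown are the windows of Cd79a at chr7:24897247-24897496 (plus strand) and Jchain at chr5:88527898-88528147 (minus strand), the expressed members whose window ends at the outer end of the gene, each read 5′ to 3′ on the strand of the gene. Capitals mark matches, on either strand, to an E-box bound by E proteins such as that of Tcf3 (CAGGTG), a PU box bound by PU.1 and SPIB (GAGGAA), or the core of the EBF1 site (CCCNNGGG). The matches in Cd79a do not overlap, and Jchain has none.
Cd79a: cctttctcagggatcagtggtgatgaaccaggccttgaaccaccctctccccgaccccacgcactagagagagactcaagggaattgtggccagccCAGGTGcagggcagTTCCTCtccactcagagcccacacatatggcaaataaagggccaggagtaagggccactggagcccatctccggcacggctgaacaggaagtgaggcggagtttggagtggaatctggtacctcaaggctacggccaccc
Jchain: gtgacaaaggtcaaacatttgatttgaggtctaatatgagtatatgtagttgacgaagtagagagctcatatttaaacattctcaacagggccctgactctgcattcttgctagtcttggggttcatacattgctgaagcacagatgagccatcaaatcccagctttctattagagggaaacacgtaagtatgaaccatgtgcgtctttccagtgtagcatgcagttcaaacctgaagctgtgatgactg

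The E-box letters were present in 4 of the 6 member windows, namely those of Cd79a, Bank1, Fcrla and Cd22, and in 17.2% of all 32851 windows of the same length. The PU box letters were present in those of Cd79a and Fcrla, beside 23.3% of all windows, and the EBF core in those of Bank1 and Cd22, beside 11.8%. The octamer ATGCAAAT of immunoglobulin promoters was in none of the 6 and in 1.6% of all. The E-box of Cd79a lies 154 to 149 bases before the start and its PU box 140 to 135 bases before it. The windows of Jchain and Pax5 hold none of these letters. A match is a stretch of letters and not a measured site.

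Other genes of the B lineage, in 7 lists, gave mixed signs. Of 15 expressed surface and coreceptor genes (25 listed), 12 were higher and 3 lower in CD47 KO, none past 2-fold, with a median of 0.16. The lowest were Ifitm1, an interferon-induced membrane protein, with 1273 in CD47 KO and 2227 in WT (Log2 ratio, -0.81), and Tnfrsf13c, the receptor for the survival factor BAFF, with 293 in CD47 KO and 475 in WT (Log2 ratio, -0.70). Tnfrsf13b, the receptor TACI, ran the other way with 1147 in CD47 KO and 785 in WT (Log2 ratio, 0.55). The brightest of the list, Cd81 and Cd24a, are made by many cell types, microglia or neurons among them, and had Log2 ratios of 0.16 and 0.07. As for other markers of B cells, the complement receptor gene Cr2, with 75.7 in CD47 KO and 36.1 in WT, and the kinase gene Blk, with 88.1 in CD47 KO and 127 in WT, were under the median on both arrays. Ebf1, a factor that starts the B cell program and is also made by stromal cells, read 383 in CD47 KO and 316 in WT on its brightest probe set (Log2 ratio, 0.28). Its expressed probe sets differed in sign. Probe set 1448293_at had a Log2 ratio of 0.17, whereas 1416302_at read 83.6 in CD47 KO and 227 in WT (Log2 ratio, -1.44) and reached the median on the WT array only.

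Genes for the signaling steps below the receptor split evenly, with 15 of 30 expressed genes higher and 15 lower and a median of 0.00. Malt1, a protease of the pathway to NF-κB, was the only one past 2-fold, with 419.8 in CD47 KO and 199.7 in WT (Log2 ratio, 1.07), but its other probe sets had Log2 ratios of -0.54 and -0.55. Btk, the kinase mutated in human agammaglobulinaemia and also made by myeloid cells, read 316 in CD47 KO and 165 in WT (Log2 ratio, 0.93). Pik3ap1, the adaptor BCAP, read 426 in CD47 KO and 724 in WT (Log2 ratio, -0.77). Most of these genes are active in microglia or other leukocytes too, so the list is not specific to B cells. The brightest, Prkcb and Pik3r1, had Log2 ratios of 0.05 and 0.02.

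Transcription factors of the B lineage also split evenly, 9 higher and 9 lower of 18 expressed genes, with a median of -0.01. Relb, an NF-κB subunit, read 171 in CD47 KO and 85.3 in WT (Log2 ratio, 1.00), the only one past 2-fold, and reached the median on the CD47 KO array only. Ikzf3, the lymphoid factor Aiolos, read 90.4 in CD47 KO and 162 in WT (Log2 ratio, -0.84), and Foxo1 read 738 in CD47 KO and 1099 in WT (Log2 ratio, -0.57). The brightest, Mef2c and Klf2, had Log2 ratios of 0.15 and -0.14. Genes of early B cell stages were 5 higher and 5 lower of 10, with a median of -0.12. Rag1, a subunit of the recombinase that joins antigen receptor genes, read 239 in CD47 KO and 400.1 in WT (Log2 ratio, -0.74). Vpreb3, found in precursor B cells, read 527 in CD47 KO and 739 in WT (Log2 ratio, -0.49). Dntt, the polymerase that adds bases at those joins, read 728 in CD47 KO and 539 in WT (Log2 ratio, 0.43), and the surrogate light chain gene Vpreb1 read 5799.5 in CD47 KO and 5787 in WT (Log2 ratio, 0.00). Arpp21, which neurons make, had a Log2 ratio of -0.23.

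Plasma cell genes were likewise mixed, with 7 higher and 8 lower of 15 expressed genes and a median of -0.06. Past 2-fold lower were Cd28, with 44.1 in CD47 KO and 170.2 in WT (Log2 ratio, -1.95), and Cd27, with 61.7 in CD47 KO and 184 in WT (Log2 ratio, -1.58). Both are costimulatory receptors that T cells also carry, and both reached the median on the WT array only. The other Cd28 probe set, under the median on both arrays, ran the other way with 35.1 in CD47 KO and 10.6 in WT (Log2 ratio, 1.73). Sdc1, the plasma cell surface marker CD138, read 237 in CD47 KO and 353 in WT on its brightest probe set (Log2 ratio, -0.58). Its other probe sets, under the median on both arrays, had Log2 ratios from -2.42 to 0.19. The brightest genes of the list, Sec11c of the signal peptidase and the chaperone gene Hsp90b1, are made by most secreting cells and had Log2 ratios of 0.06 and 0.27. The markers that define plasma cells pointed both ways. Tnfrsf17, the receptor BCMA, read 1189 in CD47 KO and 809.6 in WT (Log2 ratio, 0.55), and Mzb1, a chaperone of antibody assembly, read 579.9 in CD47 KO and 459 in WT (Log2 ratio, 0.34). Prdm1, the factor Blimp-1 that drives plasma cell formation, read 292 in CD47 KO and 205 in WT (Log2 ratio, 0.51). Irf4 and Xbp1, factors of the same program, had Log2 ratios of -0.21 and -0.27. Together with Jchain and Sdc1, and by brightest probe sets, 4 of the 7 markers were lower and 3 higher in CD47 KO. None of these was past 2-fold, and all 7 were expressed.

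Of the other immunoglobulin genes, 4 of the 7 named on the array were expressed. Igha, the heavy chain of IgA, read 8507 in CD47 KO and 8651 in WT (Log2 ratio, -0.02). Igk, the kappa light chain, read 15888 in CD47 KO and 15843 in WT on its brightest probe set (Log2 ratio, 0.00) but 1825 in CD47 KO and 3342 in WT on 1425738_at (Log2 ratio, -0.87). The lambda gene Iglv1 read 1079 in CD47 KO and 1589 in WT on its brightest probe set (Log2 ratio, -0.56). On 1447918_x_at, above the median on both arrays, it read 347 in CD47 KO and 753 in WT (Log2 ratio, -1.12). Ighg3, the heavy chain of IgG3, read 33.9 in CD47 KO and 186 in WT on its brightest probe set (Log2 ratio, -2.45), again a dim one that reached the median on the WT array only. Its other probe sets, under the median on both arrays, differed in sign, with Log2 ratios from -3.83 to 2.76. As with Ighm, probe sets of Igk, Iglv1 and Ighg3 did not give 1 answer, and the caution on shared stretches holds for them too. Among 10 expressed survival factors and receptors, 6 were higher and 4 lower, with a median of 0.21. Cxcl12, a chemokine that retains B cells and plasma cells in niches and is made by stromal and endothelial cells, read 1116 in CD47 KO and 1890.3 in WT (Log2 ratio, -0.76). Its receptor Cxcr4 read 8276 in CD47 KO and 9404 in WT (Log2 ratio, -0.18), and Il4ra, the receptor of interleukin 4, read 286 in CD47 KO and 179.6 in WT (Log2 ratio, 0.67).

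**Figure D3:**
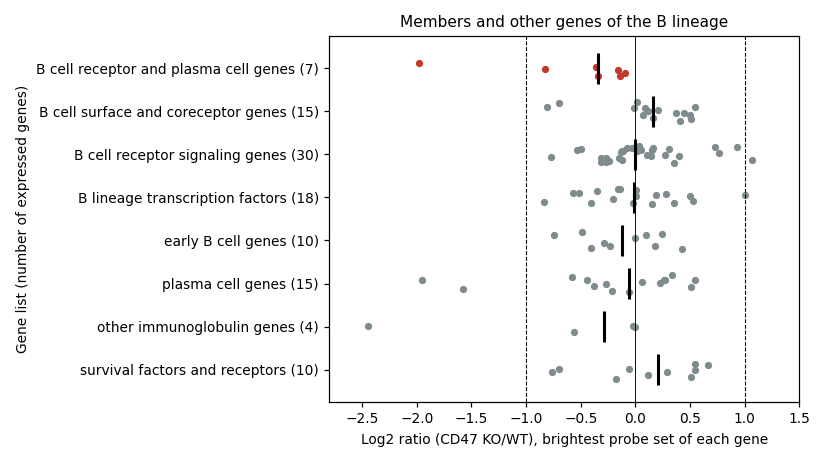
Log2 ratio (CD47 KO/WT) of the brightest probe set of each expressed gene in the member group (top) and in 7 other B lineage lists, 1 point per gene, with the number of genes in brackets, a bar at each median and dashed lines at 2-fold. The 7 expressed members all lie left of 0 with a median of -0.34, whereas the medians of the other lists run from -0.29 to 0.21. Ms4a1, the leftmost member, reached the median on the WT array only, and with the median required on both arrays the member median was -0.25.

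Markers of other cells in the preparation were set beside the members. Each sum below is over the brightest probe sets of all genes of a list named on the array, expressed or not. Counts and medians are over the expressed genes unless stated. T cell markers had a summed signal of 8631 in CD47 KO and 7401 in WT, with 4 genes higher and 5 lower and a median of -0.13. The brightest, Thy1, which neurons also make, read 3445 in CD47 KO and 2496 in WT and holds the largest share of that sum. Chains of the T cell receptor complex differed in sign. Cd3d read 1363 in CD47 KO and 935 in WT, Cd3g 1138 in CD47 KO and 668 in WT. Cd247 read 1233 in CD47 KO and 880.3 in WT on its brightest probe set. Lower in CD47 KO was Cd3e, at 64.3 in CD47 KO and 326 in WT, which reached the median on the WT array only. Trac, under the median on both arrays, was also lower, at 6.76 in CD47 KO and 20.5 in WT. The coreceptor gene Cd8a read 503 in CD47 KO and 942 in WT, and Cd28 is given above. NK cell markers summed to 6848 in CD47 KO and 6142 in WT, with a median of 0.15, while the defining marker Ncr1 was under the median with 47.2 in CD47 KO and 97.7 in WT. T cell genes thus pointed both ways, and the sign of their sum and of their median differ.

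Most of the blood and vascular lists that follow ran lower by their medians. Neutrophil markers were lower for 9 of 11 genes, with a median of -0.29 and a sum of 77025 in CD47 KO and 81796 in WT. The 2 that were higher are the brightest and the defining markers of the list, and hold the largest shares of that sum. S100a8 read 21931 in CD47 KO and 19599.6 in WT (Log2 ratio, 0.16), and S100a9 read 24191 in CD47 KO and 22757 in WT (Log2 ratio, 0.09). The lowest were Elane, with 762 in CD47 KO and 1575 in WT (Log2 ratio, -1.05), and Mpo, with 1492 in CD47 KO and 2728 in WT (Log2 ratio, -0.87). Only Elane was past 2-fold. Monocyte and dendritic cell markers were lower for 7 of 9 genes, with a median of -0.29 and a sum of 30335 in CD47 KO and 33181 in WT. Endothelial markers were lower for 10 of 12 genes, with a median of -0.42 and a sum of 8754 in CD47 KO and 10966 in WT. Fibroblast and meningeal markers were lower for 9 of 11 genes, with a median of -0.71 and a sum of 8320.1 in CD47 KO and 11844 in WT. The 4 expressed erythroid markers were all higher, and the 5 named had a sum of 3549 in CD47 KO and 2559 in WT. Their defining marker Hba-a1 was under the median at 39.4 in CD47 KO and 34.2 in WT. By its median (0.47), the erythroid list thus ran opposite to the neutrophil and the monocyte and dendritic cell lists. A difference between the pools in their share of blood cells was not tested.

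The widest gaps were those of tissue next to the brain. All 4 expressed pituitary hormone genes were past 2-fold lower, and the 8 named had a sum of 2501 in CD47 KO and 12647 in WT. The 5 expressed airway and nasal epithelium genes all reached the median on the WT array only, so that the threshold itself favours lower values for them. They were lower, 4 of them past 2-fold. The 13 genes named had a sum of 605 in CD47 KO and 4280.2 in WT. With no threshold, the median over those 13 was -0.93, beside -2.66 for the 5 expressed. The defining marker Omp was under the median at 80.8 in CD47 KO and 121 in WT. Homeostatic microglia markers went the other way, with all 19 higher, a median of 0.16 and a sum of 188441 in CD47 KO and 165358 in WT. The members' own sum was 12044 in CD47 KO and 14074 in WT, and Jchain alone gave 8518 of it in CD47 KO and 9361 in WT. Cd22 and Pax5, under the median on both arrays, are part of that sum. The part that meningeal, vascular, pituitary or airway tissue, or a change in the share of microglia, had in the lower signals of the members was not tested.

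**Figure D4:**
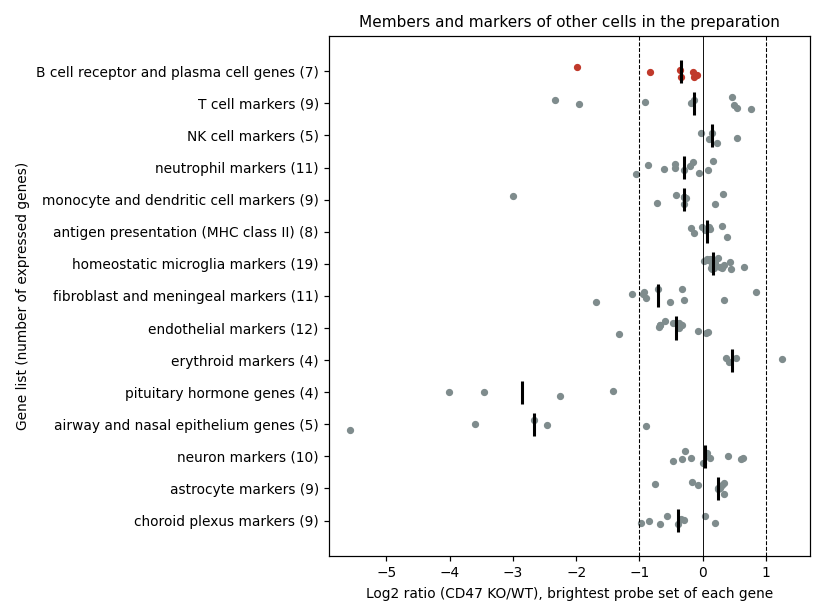
Log2 ratio (CD47 KO/WT) of the brightest probe set of each expressed gene in the member group (top) and in 14 marker lists of other cells, 1 point per gene, with the number of genes in brackets, a bar at each median and dashed lines at 2-fold. The member median of -0.34 lies near those of neutrophil (-0.29), endothelial (-0.42) and choroid plexus (-0.39) markers, far right of the pituitary (-2.86) and airway (-2.66) lists, the second of which holds only genes that reached the median on the WT array alone, and on the other side of 0 from the microglia list (0.16).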

How the data were processed

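Total RNA of brain mononuclear cells, pooled by genotype, was hybridised to 1 array per pool. The deposited values are linear signal intensities, 1 for each probe set, computed by the authors with the MAS5 algorithm in the Expression Console software, whose version was not given in the sources used here. Both arrays have a trimmed mean of 500.0, and they were used as deposited with no further normalisation. Depth does not apply to arrays, and their number, 1 per group, limits the precision.

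Probe sets were named from the platform annotation. Of 45101, 34945 carry exactly 1 symbol, 932 several, 9160 no name here, and 64 are controls. Only those with 1 symbol were used, also as the background of each count. All 9 members matched a RefSeq gene by identifier, and 281 of the 325 genes in all lists have a named probe set. The Log2 ratio is that of CD47 KO over WT without an offset, a gene is represented by its brightest probe set (mean of both arrays), and a difference counted when past 2-fold (Log2 ratio beyond 1 or -1). No test was run.

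The members and the 21 lists beside them were chosen with earlier results of these data known. Every member probe set was named. The defining markers of B and plasma cells and Cd47 were named too. From each B lineage list the 3 expressed genes with the largest Log2 ratio in size and the 2 brightest were named, and from marker lists the 2 brightest and the defining markers under the median were eligible. Xist, the Y-linked genes, the T cell genes Cd3e, Cd3g, Cd247, Trac and Cd8a and the neutrophil genes Elane and Mpo were added after their values were seen. Alternatives were other signal thresholds, quantile and loess normalisation, an added offset, a floor, the choice of probe set and the exclusion of suffixed probe sets. The counts and ratios were tested on simulated data. Promoters were the RefSeq windows of GRCm38.p6, searched on both strands and cut to 250 bases before the start. Python 3.11.15, numpy 2.4.6, pandas 2.3.3, statsmodels 0.14.6 and matplotlib 3.10.9 were used.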

Additional observations from a re-analysis of the deposited data

How the results depend on the processing

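The count of 6 member probe sets past 2-fold lower rests on the signal threshold. It was 0 with the 75th percentile as the threshold, 0 with the median required on both arrays and 2 when probe sets with a suffix were left out, and 7 with no threshold. Under every alternative that was run, no expressed member gene was higher in CD47 KO, no member probe set was past 2-fold higher, and the median Log2 ratio of the member genes stayed between -0.35 and -0.24. The Log2 ratio of Ighm, -0.36 on its brightest probe set, was -1.51 without suffixed probe sets and -1.25 as a mean over its expressed probe sets. The -1.51 is that of 1427869_at (91.8 in CD47 KO and 261 in WT). Its mean signal is nearly the same as that of 1452535_at (195 in CD47 KO and 153 in WT), which had a Log2 ratio of 0.35. Without suffixed probe sets, the lower sign of Ighm thus rests on a near tie in brightness. The Log2 ratio of Fcrla, -0.83, was -0.24 without suffixed probe sets. With the 75th percentile as threshold, list medians changed sign for early B cell genes (0.05), plasma cell genes (0.23) and T cell markers (0.49). With the median required on both arrays, they did so for T cell markers (0.46) and plasma cell genes (0.06). These alternatives keep fewer probe sets. Medians near 0 of B lineage transcription factors, MHC class II genes and neuron markers also crossed 0 by small amounts under other alternatives. The median of the other immunoglobulin genes ran from -1.66 to 0.00, and that of the airway and nasal epithelium genes, -2.66, from -4.02 to -0.93, the last with no threshold. No paired analysis was possible because each genotype has 1 array. Dim signals limit Cd22, Pax5 and most Ighm probe sets, and with pooled RNA no value can be set against the variation between mice.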
